A study of Rattus norvegicus with 6 samples.

Results

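Collagens, other stromal matrix genes and genes of mural and endothelial cells were followed in cultures of rat retinal ganglion cells (RGCs), whose axons form the optic nerve. The members were chosen by symbol: every collagen gene in the deposited table, of which there were 27, and 17 genes of stroma, of mural cells (the contractile and pericyte cells that wrap vessels) and of endothelium. These 44 genes are part of 17366 transcripts, 1 per symbol. RGCs came from Sprague Dawley rats labelled age P5, postnatal day 5, and were kept in culture for 10 days. In 3 libraries the cultures had received Chrdl1, chordin-like 1, an astrocyte-secreted protein of the chordin family known to bind BMPs, at 1 µg/ml for 12 h. The 3 others had received vehicle, labelled 0.1% BSA and 4 mM HCl. The titles carry 3 numeric codes, each on 1 Chrdl1 and 1 vehicle library, and the pairs are named by letter, A to C, in ascending order of the code. No label explains the code or says whether libraries came from separate animals or cultures, and the 2 libraries of a code may share a culture, so p-values measure only the spread between these libraries, which may be technical. The extraction protocol in the labels names visual cortex as the source of RNA, whereas the source name and cell type name RGC culture.

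Collagens are built from 3 chains that wind into a triple helix. Fibrillar collagens (types I, II, III, V, XI) give tissue its tensile strength, type IV forms the sheet of basement membranes, and others sit on fibril surfaces, in beaded filaments or in the cell membrane. In the eye, fibroblasts and cells of vessel walls are known sources of these proteins. Acta2, Tagln and Myl9 encode the contractile apparatus of smooth muscle cells, pericytes and myofibroblasts. Pecam1, Cldn5 and Cdh5 encode junction proteins that define endothelium.

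RGC markers dominated all 6 libraries. The 9 RGC markers matched summed to between 1971 and 2390 FPKM (fragments per kilobase of transcript, scaled to library size, a level corrected for length). The read totals recovered from the FPKM values ran from 14546600 reads (vehicle, pair B) to 26551750 reads (vehicle, pair C), so that 1 read on 1 kilobase was worth 0.0377 to 0.0687 FPKM. Across the 10390 transcripts tested, those at 1 FPKM or more in at least 3 libraries, 88.9% of the spread in log2(FPKM + 1) lay between title codes and 3.91% between treatments. For the tested members these shares were 98.3% and 0.696%. Of the 44 members, 17 were tested, 25 lay under the filter and 2 were at 0 in all libraries.

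Promoter sequences are shown for 5 tested members that mark the patterns described here. Acta2 had the largest difference between pairs in log2(FPKM + 1), and Postn the largest ratio among tested members. Col4a1 was the most abundant collagen among members. Kdr and Col18a1 were the tested members with another order of pairs. Each is the 250 bases before the annotated start, from RefSeq on GRCr8, read 5′ to 3′ on the gene's strand. Capitals mark matches on either strand to the TATA box (TATAAA), the GC box (GGGCGG) or the CArG box, the site of serum response factor in contractile genes, allowing 1 mismatch in its A/T core.
Acta2, chr1:241172504-241172753, minus strand: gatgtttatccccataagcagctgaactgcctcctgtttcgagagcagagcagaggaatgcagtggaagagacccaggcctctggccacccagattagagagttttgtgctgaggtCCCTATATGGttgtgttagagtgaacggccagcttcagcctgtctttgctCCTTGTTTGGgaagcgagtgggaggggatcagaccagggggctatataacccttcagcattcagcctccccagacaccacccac
Postn, chr2:140677811-140678060, plus strand: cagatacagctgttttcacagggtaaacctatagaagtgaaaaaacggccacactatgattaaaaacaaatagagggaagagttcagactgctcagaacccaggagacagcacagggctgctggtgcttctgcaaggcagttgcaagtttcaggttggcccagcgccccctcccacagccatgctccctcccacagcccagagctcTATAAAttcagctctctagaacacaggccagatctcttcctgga
Col4a1, chr16:84885347-84885596, plus strand: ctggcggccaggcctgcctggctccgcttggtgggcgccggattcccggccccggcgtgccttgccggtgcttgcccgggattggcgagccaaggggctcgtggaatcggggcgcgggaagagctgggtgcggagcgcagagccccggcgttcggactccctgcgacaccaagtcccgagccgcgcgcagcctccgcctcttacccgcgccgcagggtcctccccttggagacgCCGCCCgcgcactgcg
Kdr, chr14:32571813-32572062, plus strand: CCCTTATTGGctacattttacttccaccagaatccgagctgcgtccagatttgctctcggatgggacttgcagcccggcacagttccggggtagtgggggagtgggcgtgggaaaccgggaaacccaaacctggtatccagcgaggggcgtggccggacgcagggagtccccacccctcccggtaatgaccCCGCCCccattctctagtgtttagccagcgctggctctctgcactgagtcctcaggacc
Col18a1, chr20:11473395-11473644, plus strand: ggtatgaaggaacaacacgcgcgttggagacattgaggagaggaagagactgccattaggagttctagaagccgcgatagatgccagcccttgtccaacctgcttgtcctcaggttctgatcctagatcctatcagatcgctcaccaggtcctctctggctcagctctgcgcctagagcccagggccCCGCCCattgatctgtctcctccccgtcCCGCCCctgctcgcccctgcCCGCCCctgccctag
The Acta2 window held 2 CArG boxes with 1 mismatch, at bases -134 to -125 and -84 to -75 from the start, and Postn held a TATA box at -44 to -39. Col4a1 held 1 GC box and Col18a1 held 3, while Kdr held a GC box at -59 to -54 and a CArG box with 1 mismatch at -250 to -241. Of the 30 members matched in the RefSeq table, 17 had a GC box in this window, 5 a TATA box, 1 (Col6a4) an unmismatched CArG box and 3 (Acta2, Col23a1, Kdr) one with 1 mismatch. Among 27457 promoters of the same length the shares were 32.4%, 13.1%, 1.5% and 6.73%. Of the 9 tested members matched, 6 had a GC box and 1 a TATA box. A match describes letters in a window and was not tested as a site.

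Stromal RNA differed between the pairs far more than between treatments. The limma F test for the title code, with treatment as a term, called 17 of 17 tested members at an adjusted p under 0.05, the highest adjusted p being 0.000543. It called 4930 of 10390 genes tested, a share of 47.4%. Both libraries of pair C lay above the other 4 libraries in all 17 tested members, which held for 23.4% of all genes tested. By the pairwise contrasts, 15 of the 17 had the order C above A above B, against 3.73% of all genes tested. The other two, Col18a1 and Kdr, had C above B above A, against 0.568%. The filter cannot be met by 1 pair alone, but it favours genes present in most libraries. Col1a1, Col11a1 and Postn met it only through pairs A and C, so their low pair B was not independent of the filter. Of the members below the filter, Col9a2, Col11a2 and Col27a1 had the lowest mean in pair A, and Col14a1 and Col16a1 in pair B. With no filter, 25 of the 42 members not at 0 everywhere were called, against 28.7% of 14171 transcripts. In bulk RNA, fewer cells of a type and less RNA per cell cannot be told apart.

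**Figure D1:**
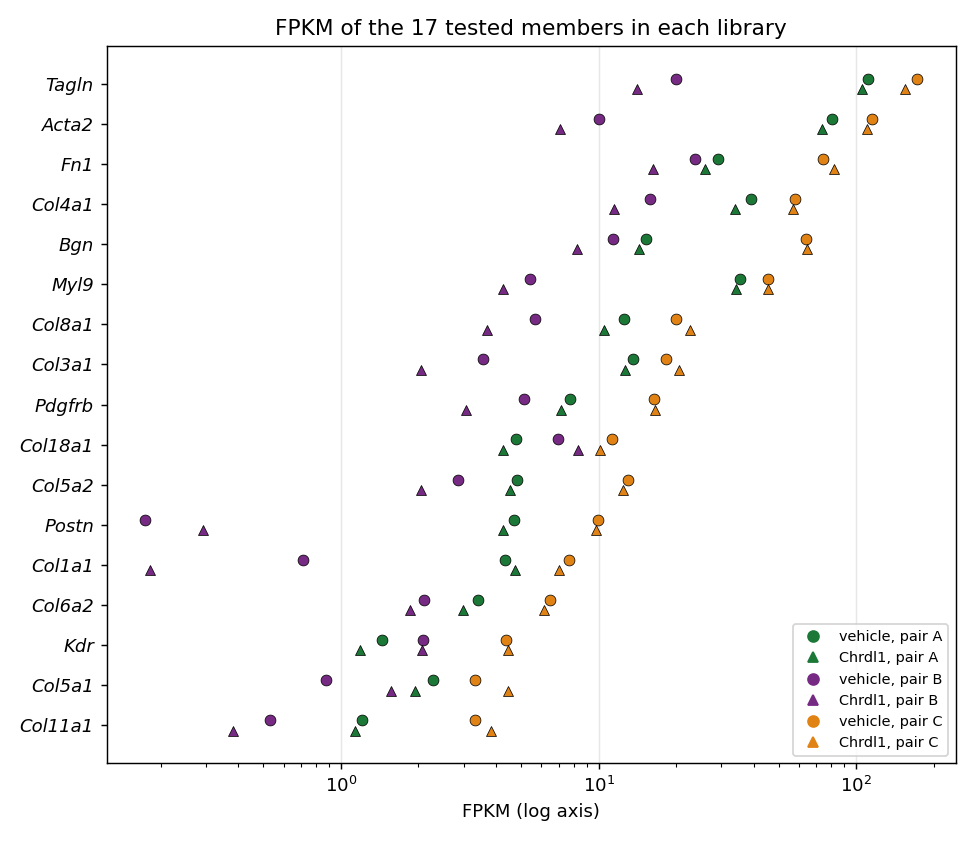
FPKM (horizontal log axis) of the 17 tested members, 1 symbol per library; circles are vehicle, triangles Chrdl1, and colours the pairs sharing a title code. Pair C lies to the right for every gene shown, and pair B lies lowest for all but Col18a1 and Kdr.

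The contractile genes Tagln and Acta2 were the most abundant members and had the largest differences between pairs C and B in log2(FPKM + 1). By the ratio of mean FPKM, the tested members Postn (42.5) and Col1a1 (16.4) lay above Acta2 (13.2) and Tagln (9.62). Tagln, the actin-binding protein transgelin (chr8:50222895-50228369 on rn6, minus strand, as the table gives it), was at 111, 19.9 and 172 FPKM with vehicle, giving pairs A, B and C in this order here and below. Its Chrdl1 libraries were at 105, 14.1 and 155 FPKM. The pairs did not overlap, and pair C averaged 9.62-fold the level of pair B. Its log2 difference, C minus B, was 3.21 ± 0.094 (SE, limma adjusted p = 8.26e-11). Acta2, smooth muscle actin (chr1:252537614-252550394), was at 80.6, 10.0 and 115 FPKM with vehicle. With Chrdl1 it was at 73.4, 7.08 and 110 FPKM. Pair C was 3.59 ± 0.096 above pair B on the log2 scale (adjusted p = 5.33e-11), and the difference of pair B from pair A was -3.05 ± 0.096 by limma. Myl9, the regulatory light chain of smooth muscle myosin, was at 35.5, 5.40 and 45.4 FPKM with vehicle and 34.1, 4.27 and 45.3 FPKM with Chrdl1. For these 3 genes pairs A and C were close, 1.30-fold to 1.52-fold apart in mean FPKM, and pair B stood low.

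Pdgfrb, the receptor through which mural cells and fibroblasts answer PDGF-B, had a shallower gradient. It was at 7.76, 5.14 and 16.4 FPKM with vehicle and at 7.13, 3.06 and 16.5 FPKM with Chrdl1. Pair C averaged 4.01-fold pair B and 2.21-fold pair A. Rgs5 and Cspg4, used as markers of pericytes, were near the floor. Rgs5, a G-protein regulator, ran from 0.0790 to 0.764 FPKM on 1 to 9 reads per library. Cspg4, the NG2 proteoglycan also made by oligodendrocyte precursors, ran from 0.0510 to 0.280 FPKM on 6 to 60 reads. The mural members above the filter were Acta2, Tagln, Myl9 and Pdgfrb, none of which is exclusive to pericytes.

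Fn1 and Bgn, matrix genes outside the collagen family, had pair C far above both others, whereas Postn had pair B far below both others. Fn1, fibronectin (chr9:78900113-78969013), was at 29.0, 23.6 and 74.2 FPKM with vehicle and 25.9, 16.3 and 81.8 FPKM with Chrdl1. Bgn, the small proteoglycan biglycan, was at 15.3, 11.4 and 63.7 FPKM with vehicle and 14.3, 8.24 and 64.2 FPKM with Chrdl1. The log2 difference, C minus A, was 1.47 ± 0.12 for Fn1 and 2.04 ± 0.11 for Bgn (limma adjusted p = 3.11e-06 and 5.31e-08), against 0.37 ± 0.095 for Myl9. Postn, periostin, a matrix protein of activated fibroblasts, was at 4.68, 0.174 and 9.95 FPKM with vehicle. With Chrdl1 it was at 4.24, 0.291 and 9.80 FPKM. Pair B of Postn rested on 8 and 21 reads, and pair C averaged 42.5-fold its level.

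Dcn and Lum, small leucine-rich proteoglycans that mark fibroblasts, were in effect genes of 1 pair. Dcn was at 5.21 and 4.76 FPKM in pair C with vehicle and with Chrdl1, on 222 and 185 reads, and at 0 in the other 4 libraries. Taking 3 reads per library as the limit that a count of 0 allows, pair C was at least 63.8-fold higher than pair A and at least 47.4-fold higher than pair B. This limit covers counting error only. Lum was at 1.42 and 1.99 FPKM in pair C, at 0.0470 and 0.0250 FPKM in pair A on 2 and 1 reads, and at 0 in pair B. The table places these neighbours 37782 bases apart on chromosome 7 of rn6, on the same strand. Neither was tested, because 2 libraries do not meet the filter.

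**Figure D2:**
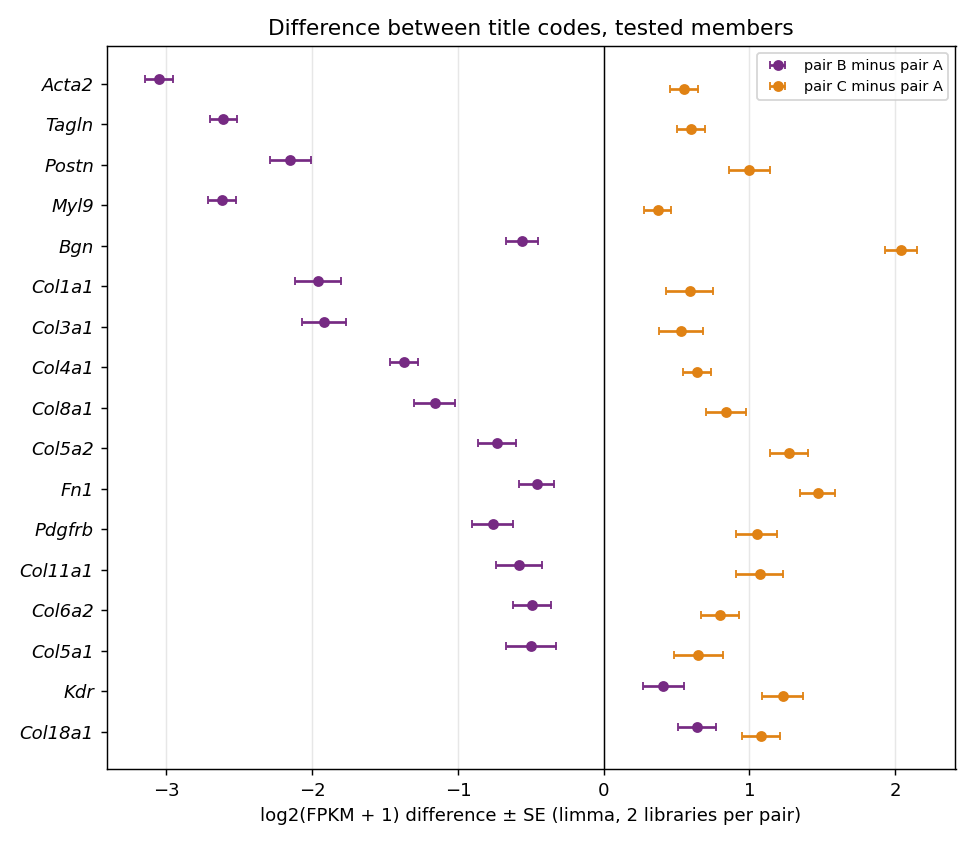
Difference in log2(FPKM + 1) between pairs (horizontal axis) for the 17 tested members, with limma SE from 2 libraries per pair and treatment as a term. Acta2, Tagln and Myl9 fell furthest in pair B (to -3.05), and Bgn was furthest above pair A in pair C (2.04); Kdr and Col18a1 are positive in both contrasts.

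Fibrillar collagens were led by Col3a1, of which 5 of 10 genes in the table were tested. Col3a1, the single chain of type III collagen (chr9:52023295-52059221), was at 13.6, 3.57 and 18.3 FPKM with vehicle. With Chrdl1 it was at 12.7, 2.04 and 20.6 FPKM, so that pair B lay below both other pairs in each treatment. Col1a1, the main chain of type I collagen, was at 4.34, 0.714 and 7.66 FPKM with vehicle and at 4.75, 0.182 and 7.04 FPKM with Chrdl1. Its partner chain Col1a2 was listed at 0 in all 6 libraries. The table counts 2 copies of the Col1a2 transcript in the genome and 1 of every other member; whether that bears on the 0 was not tested.

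Type V and XI chains, which nucleate fibrils and limit their width, were lower than Col3a1. Col5a2 was at 4.84, 2.85 and 13 FPKM with vehicle and 4.52, 2.05 and 12.4 FPKM with Chrdl1, and Col5a1 had pair means of 2.10, 1.22 and 3.90 FPKM. Col11a1 averaged 1.17, 0.457 and 3.58 FPKM. Col3a1 and Col5a2 are neighbours on chromosome 9, 31867 bases apart on opposite strands. Col3a1 rose by 0.53 ± 0.15 and Col5a2 by 1.27 ± 0.13 from pair A to pair C on the log2 scale (limma adjusted p = 0.0181 and 1.72e-05). The pair B deficit was larger for Col3a1, at -1.92 ± 0.15 against -0.73 ± 0.13, and these differences between both genes were not themselves tested.

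Col11a2 and Col27a1, fibrillar chains known best from cartilage, did not share the order of the other fibrillar genes. Col11a2 had pair means of 0.188, 1.07 and 0.906 FPKM, and Col27a1 averaged 0.140, 0.995 and 0.728 FPKM. Both were lowest in pair A, on 17 to 28 reads per library, and highest in the Chrdl1 library of pair B, at 1.42 and 1.37 FPKM. They did not meet the filter, and with no filter both were called for the title code (limma adjusted p = 0.0229 and 0.0307). Col5a3 was near the floor in pairs A and B and averaged 0.718 FPKM in pair C. Col2a1, the cartilage collagen also made in the vitreous, ran from 0.0190 to 0.166 FPKM.

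Among the collagens present, the basement membrane and network class had the highest summed FPKM in every library. Of 9 genes sought in this class 4 were present, against 10 of 11 in the fibrillar class, whose sum counts Col1a2 at 0. Genes that were absent could not be ranked. Col4a1 (chr16:83522162-83632153), a core chain of every basement membrane, was at 39.0, 15.8 and 57.7 FPKM with vehicle on 6227, 1497 and 9993 reads. With Chrdl1 it was at 33.9, 11.5 and 56.7 FPKM. Col8a1, a short-chain network collagen of vessel walls and of Descemet's membrane, was at 12.5, 5.67 and 20 FPKM with vehicle and 10.5, 3.69 and 22.7 FPKM with Chrdl1. Both had pair B lowest and pair C highest without overlap, and mean FPKM in pair C was 4.20-fold and 4.56-fold that of pair B (limma adjusted p = 6.11e-09 and 2.10e-07). Col4a3 and Col4a4, chains of specialised basement membranes such as that of the kidney glomerulus, were at or near 0. Col4a4 had no reads in any library, and Col4a3 had 1 to 3 reads in the Chrdl1 libraries and 0 in the vehicle libraries. These 2 genes lie 568 bases apart on opposite strands.

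Col18a1, the basement membrane collagen from which endostatin is cut, was one of the pair of tested members in which A was lowest. It was at 4.79, 6.97 and 11.3 FPKM with vehicle and at 4.25, 8.30 and 10.1 FPKM with Chrdl1. Pair B was 0.64 ± 0.13 above pair A on the log2 scale (limma adjusted p = 0.00267), a contrast in which 14.0% of all genes tested were called higher. Pair C was a further 0.44 ± 0.13 above pair B (adjusted p = 0.0187). Col6a2, a chain of the beaded filaments of type VI collagen, was at 3.42, 2.10 and 6.48 FPKM with vehicle and 2.98, 1.86 and 6.16 FPKM with Chrdl1.

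The remaining collagens were low. Of the fibril-associated genes, Col9a2, Col14a1 and Col16a1 reached 1 FPKM in at least 1 library, and Col9a1 was at most at 0.230 FPKM. Col16a1 was at 1.36 and 1.16 FPKM in pair C and at 0.0530 to 0.283 FPKM elsewhere. Col9a2 had pair means of 0.681, 1.06 and 1.16 FPKM. Col7a1, which forms the anchoring fibrils of skin, ran from 0.0990 to 0.250 FPKM. The membrane collagens Col13a1, Col17a1 and Col23a1, and Col15a1, Col26a1 and Col6a4, were at most at 0.485 FPKM in any library. Just under the filter, Col9a2, Col16a1, Dcn and Lum had 2 libraries at 1 FPKM or above, and Col11a2, Col14a1 and Col27a1 had 1. Just inside it, Col1a1, Col11a1 and Postn had 4 such libraries.

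**Figure D3:**
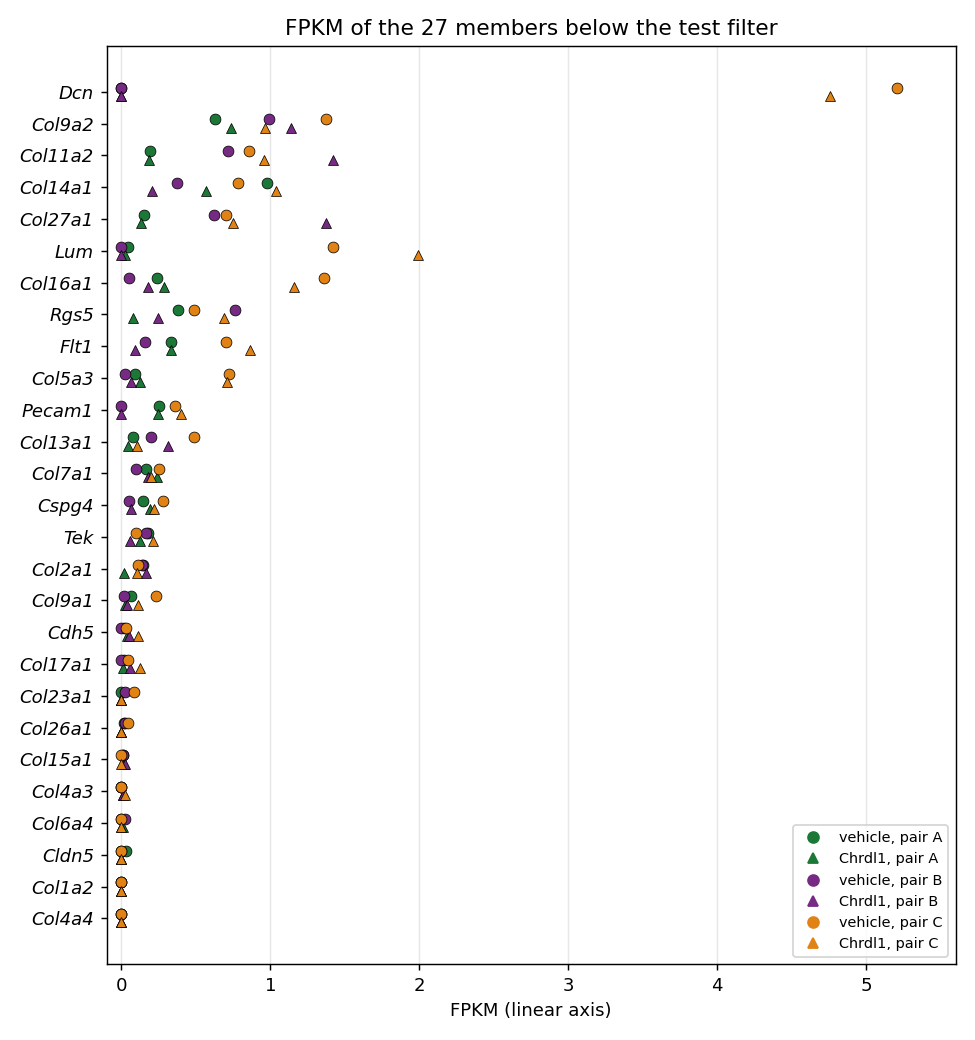
FPKM (horizontal linear axis) of the 27 members that were not tested, 1 symbol per library, with 2 of them at 0 throughout. Dcn and Lum stand out in pair C alone, while Pecam1, Tek, Cdh5 and Cldn5 stay under 0.5 FPKM.

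The endothelial junction genes Cldn5 and Cdh5 were at or near 0. Cldn5, the tight junction claudin of the blood-retina barrier, had 1 read in 1 library and 0 in the other 5. Cdh5, the VE-cadherin of all endothelium, ran from 0 to 0.114 FPKM on at most 7 reads. Pecam1, an adhesion molecule of endothelium that macrophages and platelets also carry, was at 0.255 and 0.247 FPKM in pair A, at 0 in pair B and at 0.362 and 0.397 FPKM in pair C. Pair A was at least 3.10-fold and pair C at least 4.69-fold above pair B in Pecam1, by the limit of 3 reads per library. Tek, the angiopoietin receptor, ran from 0.0580 to 0.210 FPKM, and Flt1, VEGF receptor 1, from 0.0930 to 0.862 FPKM. Of the endothelial members, the VEGF receptors Kdr and Flt1 reached the highest levels and Cldn5 and Cdh5 the lowest.

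Kdr, VEGF receptor 2, was the single endothelial member above the filter. It was at 1.45, 2.09 and 4.38 FPKM with vehicle and at 1.19, 2.06 and 4.44 FPKM with Chrdl1, on 162 to 679 reads. Pair A was lowest, unlike in Pecam1, where pair B had no reads. Pair C lay 1.23 ± 0.14 above pair A and 0.81 ± 0.14 above pair B on the log2 scale (limma adjusted p = 6.75e-05 and 0.000845). Of 13 further endothelial genes matched, 3 were tested and 2 called for the title code, against 47.4% of all genes tested. Eng and Esam were called and highest in pair C, and both are known also from macrophages, mural cells or platelets. Plvap, a protein of fenestrated endothelium, was at 3.77, 2.55 and 3.38 FPKM with vehicle and 3.60, 2.98 and 2.24 FPKM with Chrdl1, and was not called (limma adjusted p = 0.167). Erg, Sox17, Sox18, Tie1, Vwf and Robo4 were at 0.113 FPKM or less in every library. The other untested genes, Egfl7, Abcb1a, Emcn and Cd34, reached 1.15, 0.958, 0.660 and 0.179 FPKM in their highest library.

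Genes that build collagen were then read from the same fit. Of 26 matched genes of collagen modification, folding, secretion and cross-linking, 21 were tested. Of these, 19 were called for the title code, against 47.4% of all genes tested. Pair C was higher than pair A in 16 and lower in 0, where 21.0% and 9.94% of all genes tested were called. Pair C was higher than pair B in 14 and lower in 0, where 20.2% and 11.7% were called. Serpinh1, the collagen chaperone HSP47, was at 17.5, 8.35 and 40.8 FPKM with vehicle and 16.1, 5.09 and 36.5 FPKM with Chrdl1. Its order of pairs was that of the fibrillar collagens. Lox, which cross-links collagen and elastin, and Pcolce, which enhances trimming of procollagen, were 2.43 ± 0.18 and 2.63 ± 0.12 higher in pair C than in pair B (limma adjusted p = 2.92e-07 and 2.68e-09). The most abundant, Ppib and P4hb, serve protein folding in general. Ppib was at 142, 105 and 152 FPKM with vehicle and 144, 111 and 129 FPKM with Chrdl1, and P4hb at 108, 86.4 and 128 FPKM and 104, 81.5 and 120 FPKM. Their log2 differences, C minus B, were 0.38 ± 0.088 and 0.56 ± 0.074. P3h3, a prolyl hydroxylase, had A lowest: 5.75, 10.8 and 19.9 FPKM with vehicle and 5.71, 17.2 and 14.7 FPKM with Chrdl1. Serpinh1, Lox, Pcolce and P3h3 were picked after their values were seen.

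The most abundant partners of type IV collagen in basement membranes, Lama4 and Agrn, did not have the order of pairs of Col4a1. Of 10 matched genes 4 were tested and 3 called for the title code, against 47.4% of all genes tested. Lama4, a laminin chain, was at 59.7, 70.8 and 55.4 FPKM with vehicle and 57.8, 73.1 and 59.5 FPKM with Chrdl1, and it was lower in pair C than in B by 0.32 on the log2 scale (log2 difference -0.32 ± 0.077, limma adjusted p = 0.00708). Agrn, the heparan sulfate proteoglycan agrin, was at 25.4, 26.5 and 26.2 FPKM with vehicle and 25.9, 31.1 and 27.5 FPKM with Chrdl1, and was not called (limma adjusted p = 0.290). Lamb2, picked after its values were seen, was called with C highest, at 1.71, 0.992 and 4.11 FPKM with vehicle. Lamc1, also picked so, was called with B lowest and C highest, at 11.8, 10.7 and 14.0 FPKM with vehicle. Of the 8 matched collagen receptors 4 were tested and 3 called, against the same 47.4% of all genes tested. Itgb1, the shared beta chain of collagen-binding integrins, was at 54.6, 37.8 and 61 FPKM with vehicle and 54.3, 36.2 and 63.3 FPKM with Chrdl1. Ddr1, a collagen-activated kinase, was at 31.4, 32.2 and 28.0 FPKM and 30.3, 30.6 and 27.8 FPKM, and was not called (limma adjusted p = 0.181).

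Markers of some other cell types differed between the pairs as well. Of the 12 microglia and macrophage markers 9 were tested and 9 called, and pair B was lower than pair A in all 9. They summed to 196, 19.0 and 228 FPKM with vehicle, and to 162, 9.70 and 205 FPKM with Chrdl1. None was at 0 throughout, although Cx3cr1 and P2ry12 were at 0 in both libraries of pair B. The contractile and mural members summed to 235, 41.3 and 350 FPKM with vehicle and 219, 28.8 and 328 FPKM with Chrdl1. Of the photoreceptor markers, Gnat2 and Crx were high in pair C alone and made up most of its sum, while Gnat1 and Arr3 stayed under 1 FPKM in all libraries. The list summed to 7.69, 5.0 and 98.2 FPKM with vehicle and 6.36, 6.11 and 105 FPKM with Chrdl1, with 2 of 9 tested and both called. Astrocyte and Müller glia markers summed to 73.9, 61.6 and 95 FPKM with vehicle, most of it Glul. In this list 3 of 3 tested were called, and all were higher in pair C than in pair B, against 20.2% of all genes tested. Slc1a2 was at 1.16, 1.81 and 5.12 FPKM and Slc1a3 at 1.34, 0.528 and 5.10 FPKM with vehicle. Aqp4 and Gjb6 were at or near 0, and Gfap was highest in pair C at 1.24 FPKM. Of 16 further fibroblast and meningeal genes matched, 4 were tested and 4 called. Sparc and Thbs2 led them, at 71.3, 16.4 and 133 FPKM and 26.6, 12.1 and 52.6 FPKM with vehicle. Of 12 further mural genes 5 were tested and 3 called, and 2 of the 5 were lower in pair B than in pair A. The most abundant of them, Mcam, was at 39.1, 39.2 and 44.3 FPKM with vehicle. With Chrdl1 Mcam was at 37.2, 35.1 and 43.3 FPKM, and it was not called (limma adjusted p = 0.0508). RGC markers summed to 2390, 2049 and 2251 FPKM with vehicle and to 2384, 2048 and 1971 FPKM with Chrdl1, most of it Sncg and Nefl. Of 9 tested RGC markers 6 were called, with 1 higher (Thy1) and 3 lower (Rbpms, Isl1, Pou4f2) in pair C than in pair B. In that contrast 20.2% and 11.7% of all genes tested were called higher and lower. Of 4 tested oligodendrocyte lineage markers 1 was called, and of 1 tested pigment epithelium marker 0: their vehicle sums were 35.1, 37.7 and 35.7 FPKM, and 1.27, 1.65 and 1.78 FPKM. The part of these other cell types in the differences between pairs was not tested.

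**Figure D4:**
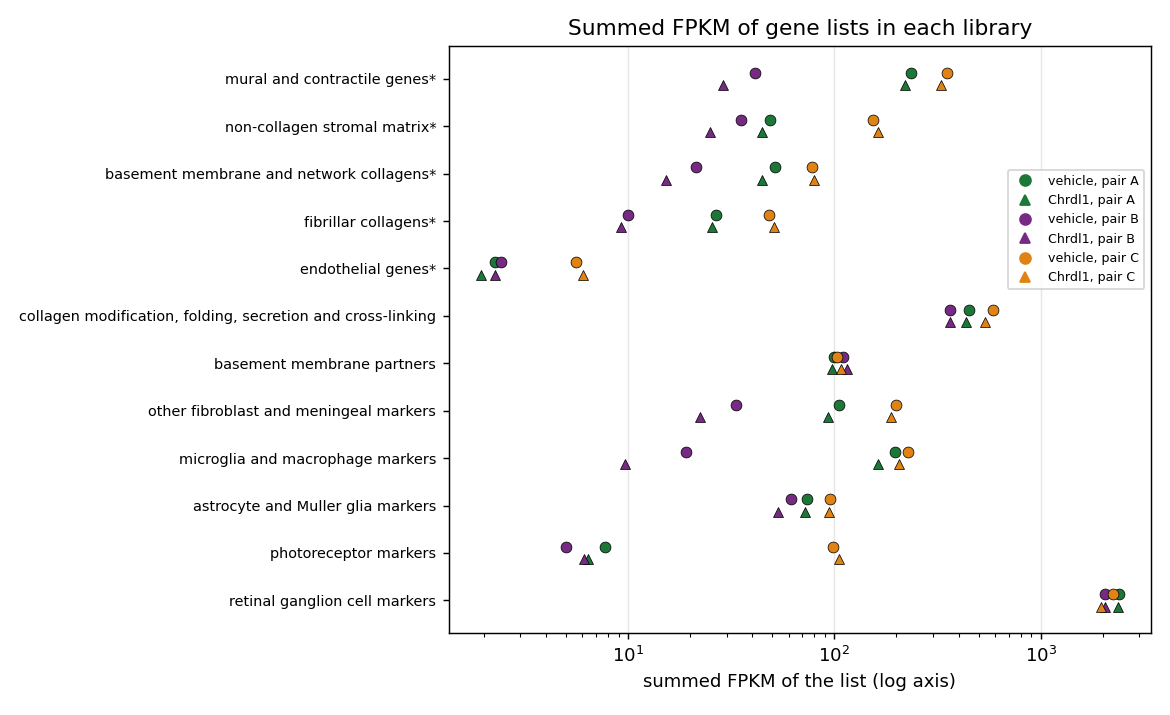
Summed FPKM (horizontal log axis) of 12 gene lists in each library; lists marked with an asterisk hold members. Pair B is lowest for contractile, matrix, collagen, fibroblast and macrophage lists, photoreceptor markers stand apart in pair C, and RGC markers lie between 1971 and 2390 FPKM throughout.

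Whether 12 h with Chrdl1 changed these genes was read from the treatment comparison, in which no member passed the threshold. Limma called 0 of 17 tested members and 0 of 10390 genes (0%), with an adjusted p of at least 0.9998 for members. With the title code as a replicate block it also called 0 of 17 and 0 of 10390 (0%), and the lowest adjusted p of a member was 0.829. At an unadjusted p under 0.05, 0 members and 18 genes (0.173%) were found without the block, and 3 members and 535 genes (5.15%) with it. All 3 were lower with Chrdl1. Of the 535 genes, 435 were also lower, which is 4.19% of all genes tested, so that direction was the usual one at that p. Voom on the recovered reads also called 0 members and 0 genes. The log2 fold changes of members, Chrdl1 minus vehicle, ran from -0.23 to 0.21 with a median of -0.17, where the median of all genes tested was -0.028. SEs ran from 0.36 to 1.20 without the block and from 0.077 to 0.14 with it.

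The 3 members with the smallest unadjusted p under the block were lower with Chrdl1 in all 3 pairs. The mean of Tagln over 3 libraries was 101 ± 76.4 FPKM (SD) for vehicle and 91.3 ± 71.5 FPKM for Chrdl1. The log2 fold change of Tagln was -0.23 ± 1.06 (SE, without the block). With the block its 95% interval ran from -0.40 to -0.065, which is not adjusted for the number of genes (limma adjusted p = 0.829). Acta2 was at -0.22, with -0.38 to -0.045 under the block, and Col4a1 at -0.22, with -0.39 to -0.043 (adjusted p = 0.872 for each). Of the members with a positive fold change, Col5a1 was at 0.21 with an interval from -0.086 to 0.51 under the block, and Postn at 0.00062 with -0.24 to 0.25. Col5a1 was not higher in every pair: the differences were -0.15, 0.45 and 0.34. In all 3 pairs, 6 of 17 members (Acta2, Tagln, Myl9, Col4a1, Col5a2, Col6a2) were lower and 0 higher, against 19.5% and 7.55% of all genes tested.

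The members' differences were furthest from 0 in pair B. The median log2 difference of tested members was -0.12, -0.43 and -0.0038 by pair, where that of all genes tested was -0.013, -0.022 and -0.055. Without pair B the members' median was -0.050. Members were lower with Chrdl1 in 16 of 17, 14 of 17 and 9 of 17 in pairs A, B and C, against 56.2%, 56.4% and 60.6% of all genes tested. Pdgfrb went from 5.14 to 3.06 FPKM in pair B, a ratio of 0.595 with a 95% counting interval from 0.515 to 0.686. Fn1 went from 23.6 to 16.3 FPKM there (0.688, 0.653 to 0.724), but from 74.2 to 81.8 FPKM in pair C (1.1, 1.08 to 1.13). Tagln had ratios of 0.943, 0.710 and 0.905 in pairs A, B and C. With 1 library per treatment in a pair, these intervals compare libraries and cover counting error only.

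Members differed from each other within pair B. Col1a1 had 60 reads with vehicle and 24 with Chrdl1, a ratio at equal depth of 0.254 (0.152 to 0.415), while Col5a1 had 70 and 196 reads, a ratio of 1.78 (1.35 to 2.37). Col27a1 and Col11a2 were at 2.19 (1.59 to 3.06) and 1.99 (1.49 to 2.70). Col18a1 was at 1.19 (1.07 to 1.33) and Kdr at 0.986 (0.814 to 1.20). In pair C the ratios for Col27a1 and Col11a2 were 1.07 and 1.11, with intervals that held 1, and in pair A 0.891 and 0.936. Counting intervals lay below 1 for 5, 10 and 2 of the 17 tested members in pairs A, B and C, and above 1 for 0, 2 and 5. The share of all genes tested with such intervals was not computed, so these counts cannot be read as a trait of the members. The median ratio of tested members was 0.911, 0.717 and 0.997 in pairs A, B and C, against 0.990, 0.983 and 0.959 for all genes tested. The genes named here for pair B were picked after their values were seen. Macrophage markers summed lower with Chrdl1 in each pair, with sums of 19.0 and 9.70 FPKM for vehicle and Chrdl1 in pair B. These sums were 196 and 162 FPKM in pair A, and 228 and 205 FPKM in pair C. The part of macrophage markers in the members' values was not tested.

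**Figure D5:**
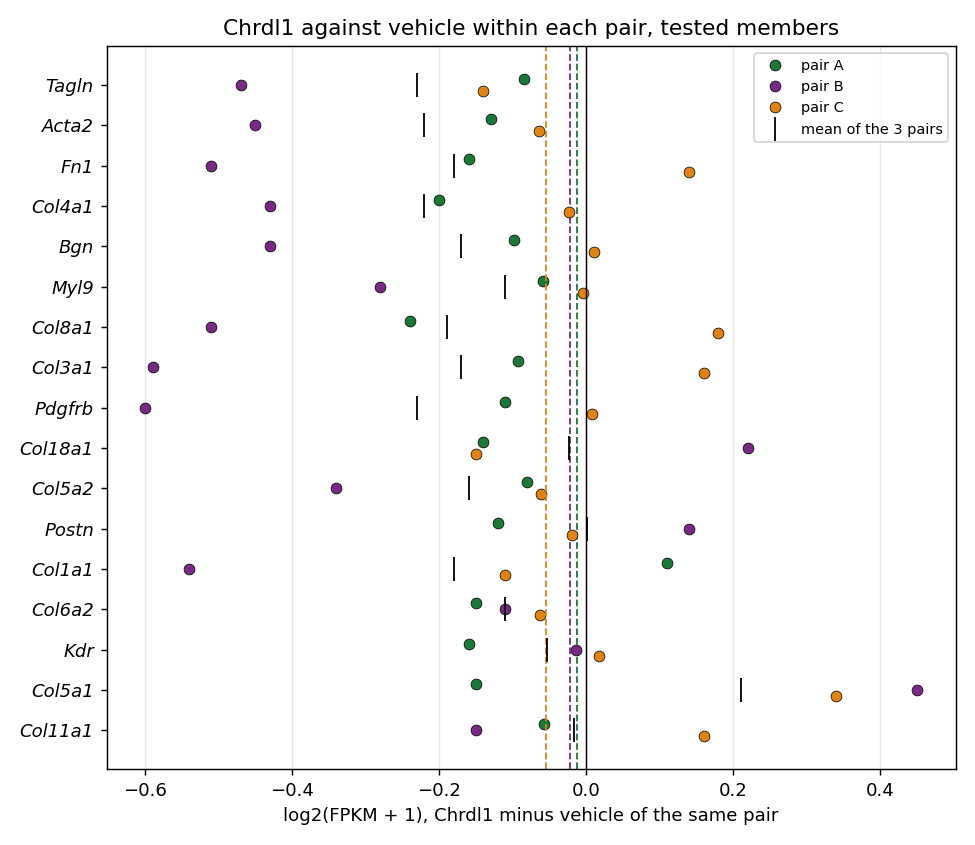
Difference in log2(FPKM + 1), Chrdl1 minus vehicle (horizontal axis), within each pair for the 17 tested members; black ticks are the mean of the 3 pairs and dashed lines the median of all genes tested in each pair. Pair B reaches -0.60 for Pdgfrb and 0.45 for Col5a1, whereas most values of pairs A and C lie between -0.2 and 0.2.

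The tested members were long transcripts, with a median of 4964 bases against 2136 for all genes tested. With the trend of fold change on length removed within each pair and the code as a block, the members' median was -0.16 and 0 were called. Tagln came to -0.17 and Col4a1 to -0.26 in that fit.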

How the data were processed

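The 6 libraries of rat RGC culture, 3 with Chrdl1 and 3 with vehicle, had been made with a stranded mRNA kit, per the labels; whether counting used strand is not stated. The submitters' processing notes name FastQC, STAR 2.4.0k, HOMER 4.8.3 and genome build rn6. The release of the annotation was not given in the sources used here, nor were filters on reads. The authors deposited FPKM values for 17366 transcripts with their lengths and copies, a unit that keeps no read number of its own. Coordinates of genes are those of the table. Read totals were recovered by finding the total at which FPKM times length gives whole reads, which held for 97.72% to 99.75% of the values above 0 within the rounding of the table, and for 3.51% to 6.46% at a wrong total.

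The test was that of limma 3.58.1 under R 4.3.3 (lmFit, eBayes with a trend, two-sided) on log2(FPKM + 1), a scale that understates the change of low genes, for transcripts at 1 FPKM or more in at least 3 libraries. P-values were adjusted by Benjamini-Hochberg over all genes tested, and called under 0.05. The title code was tested by an F test and pairwise contrasts with treatment as a term. Deviations from the group means correlated between the libraries of a code at 0.823, 0.86 and 0.842, so libraries were treated as paired by code, and values with this replicate block stand beside the treatment results. Scripts used Python 3.11.15 and were tested on simulated data. Counting intervals are exact binomial. Promoters came from RefSeq on GRCr8, where 30 of 44 members were matched. Members, lists and tests were chosen with earlier results of these data known. Named were up to 4 most abundant members of each role, defining markers whatever their value, members called, those with the smallest unadjusted p under the block in each direction, and 2 genes of each pathway list; further ones are marked.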

Additional observations from a re-analysis of the deposited data

How the results depend on the processing

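The alternatives were other pseudocounts, other filters, quantile normalization, voom on recovered reads, the replicate block alone or with another choice, and leaving out each library or pair. For Chrdl1 against vehicle, 0 genes and 0 members were called in all 19 alternatives, the replicate block among them. The title code was not tested in the alternatives with the replicate block. In the other alternatives all tested members were called for the code, except with no filter, where 25 of 42 were. At the filter of 5 FPKM, 10 members were tested and 10 called. The count of all genes called for the code fell from 4930 to 2826 without both libraries of pair A, and ran from 3148 to 5581 on leaving out 1 library. It was 3148 without the Chrdl1 library of pair A. With 1 library left out, the treatment groups hold different codes, and the treatment fit without the block, unlike the code fit, has no term that separates them. The members' median log2 fold change ran from -0.72 (without the Chrdl1 library of pair C) to 0.42 (without the Chrdl1 library of pair B), and was -0.63 without the vehicle library of pair B and 0.33 without that of pair C. Single genes ran from -1.14 to 0.80 for Tagln, -1.26 to 0.95 for Acta2, -0.73 to 0.40 for Col4a1, -0.12 to 0.48 for Col5a1 and -0.92 to 0.85 for Postn. Postn turned to -0.20 with voom, to -0.013 with voom and the replicate block, and to -0.068 without both libraries of pair B. The cause was not tested. Depth limits the members on few reads, such as Rgs5, Cdh5 and Cldn5, where changes between libraries were not detectable.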
